A study of Mus musculus with 9 samples.

Results

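The 5 genes described here, Ccn1 (formerly Cyr61), Ccn2 (Ctgf), Ccn3 (Nov), Ccn4 (Wisp1) and Ccn5 (Wisp2), encode matricellular proteins of the CCN family. They were followed on 9 Affymetrix mouse expression arrays of RNA from bone marrow cells of FVB/NJ mice, sorted as stromal cells by the absence of CD45.1, a leukocyte surface marker, and Ter119, an erythroid surface marker. The arrays form 3 groups of 3: wild-type mice without leukemia (WT), recipients of leukemia at an early stage (E, with leukemic cells at 1 to 5%) and at a medium stage (M, with leukemic cells at 5 to 50%). All groups share the strain and the sort. The leukemia that the recipients carried, and their age and sex, are not given in the sources used here. The labels call the arrays of a group biological replicates, and p-values measure the spread between those. Genes were chosen by name, as 5 of 18194 genes with a probe set of a single symbol, and they have 10 of 34958 such probe sets. Where a gene has several probe sets, the brightest by its mean over the 9 arrays stands for it. That choice used measured values, but not the groups. The mean of the chosen probe set was 11.06 for Ccn1, against 9.99 for the next one. It was 8.69 against 8.38 for Ccn3 and 8.36 against 7.98 for Ccn4 (log2). Ccn2, at 12.84, and Ccn5, at 5.87, have 1 such probe set each.

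CCN proteins are secreted into the matrix, where they bind integrins, heparan sulfate proteoglycans and growth factors rather than serving as structural fibres. They are built from modules related to insulin-like growth factor binding proteins, von Willebrand factor type C repeats and thrombospondin type 1 repeats, with a C-terminal cystine knot that Ccn5 lacks. Ccn1 and Ccn2 are classic targets of the transcriptional coactivators YAP and TAZ, which act through TEAD factors, and Ccn2 is induced by TGF-beta. In the skeleton and marrow, family members are made by cartilage, bone and mesenchymal stromal cells.

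Of the 5 genes, 1 matched an entry with a start site in the promoter sequences from RefSeq (GRCm38.p6), Ccn1. The 250 bases before its start, at chr3:145649986-145650235 on the minus strand, are shown because Ccn1 is the member whose fall in E depended on the probe set and because TEAD factors act on it. Capitals mark matches to 4 of 5 motifs searched on both strands.

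Ccn1: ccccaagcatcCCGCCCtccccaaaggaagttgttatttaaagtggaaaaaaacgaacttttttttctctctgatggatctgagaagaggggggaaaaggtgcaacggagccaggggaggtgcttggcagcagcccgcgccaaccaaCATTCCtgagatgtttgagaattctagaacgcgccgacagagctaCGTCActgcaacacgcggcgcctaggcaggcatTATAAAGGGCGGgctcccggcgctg

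The TEAD motif GGAATG lies from -103 to -98 relative to the start, on the opposite strand, and is held by 12.6% of 32851 promoter windows of this length. The cyclic AMP response element core TGACG lies from -58 to -54 (17.8% of windows), also on the opposite strand. The TATA box TATAAA lies from -25 to -20 (12.4%). The GC box GGGCGG adjoins it from -19 to -14 and occurs again from -239 to -234 on the opposite strand (32.7%). The AP-1 motif TGANTCA (6.75%) has no match in these letters. A match is a description of the sequence and not of binding.

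Values are log2 MAS5 signals. MAS5 scales each array to a common trimmed mean, and no measure of detection for single probe sets was used here, so signals near or under the median of an array are given with care. The median over all 45101 probe sets averaged 5.64 ± 0.04 on WT arrays, 5.50 ± 0.09 on E arrays and 6.26 ± 0.02 on M arrays (SD, n = 3). The 12 probe sets for poly-A spike-in RNAs read higher in M than in WT by 1.01 on average (log2), and those in E differed from WT by -0.01. The sorted cells gave strong signals of blood cell genes in every group: Klf1, an erythroid transcription factor, had WT arrays at 13.96 ± 0.14, E arrays at 13.93 ± 0.05 and M arrays at 13.40 ± 0.46 (SD, n = 3). Ptprc, which encodes CD45, was at 9.76 ± 0.13, 9.59 ± 0.14 and 10.64 ± 0.48 in the same order. Mesenchymal stroma markers (10 genes) averaged 8.20 to 8.51 on the WT arrays, 8.33 to 8.51 on the E arrays and 12.58 to 12.85 on the M arrays (log2). In bulk RNA of this kind, fewer cells of a type and less RNA per cell cannot be told apart.

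Ccn2, connective tissue growth factor, dipped in E and rose in M. Its signal was 12.70, 12.66 and 12.88 on the WT arrays, 11.23, 11.18 and 11.21 on the E arrays, and 14.64, 14.50 and 14.55 on the M arrays (log2). No group overlapped another, and the E arrays lay close together. Ccn2 fell by 1.54 (log2, SE 0.07) from WT to E, a 2.91-fold fall (adjusted p = 7.40e-07). By size it was number 11 among the 9097 genes tested, counted from the most negative change. From WT to M it rose 3.52-fold, by 1.82 (SE 0.07, adjusted p = 5.17e-09), and from E to M 10.2-fold, by 3.36 (SE 0.07, adjusted p = 8.89e-11).

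Ccn1, an angiogenic member known as an immediate early gene, rose in M, and its E arrays were lower than WT by less than those of Ccn2. Its WT arrays read 9.98, 9.85 and 10.01, its E arrays 9.69, 9.14 and 9.39, and its M arrays 13.77, 13.66 and 14.04 (log2). The E arrays all lay under the WT arrays, but the difference of -0.54 (SE 0.14) did not pass the test over the genes tested (adjusted p = 0.0763). From WT to M, Ccn1 rose 14.7-fold, by 3.87 (SE 0.14, adjusted p = 3.20e-09), and from E to M 21.3-fold (adjusted p = 6.89e-10).

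Ccn3, a member that binds Notch1 and has been tied to blood stem cell maintenance, stayed low in WT and E. It read 6.83, 6.84 and 6.54 on the WT arrays, 6.80, 6.43 and 6.17 on the E arrays, and 12.40, 12.49 and 13.67 on the M arrays (log2). WT and E overlapped, with a difference of -0.27 (95% interval -0.92 to 0.38, adjusted p = 0.740). From WT to M it rose 69.5-fold, by 6.12 (SE 0.29, adjusted p = 2.26e-08), number 8 among the 9097 genes tested. Ccn3 was bright enough for that test only through its M arrays. Over all 18194 genes, fitted without a brightness limit, the rise was number 17 (adjusted p = 6.71e-09). M replicate 3 stood above the other M arrays, and without it the rise was 5.71. The same array gave Slc4a1, the anion exchanger of red cells, at 12.00 against 14.09 and 13.99 on the other M arrays. It averaged 12.85 over the mesenchymal stroma markers against 12.62 and 12.58. It was also highest over pan-hematopoietic (11.18 against 10.56 and 10.37), pericyte (7.77 against 7.02 and 6.64) and chondrocyte markers (13.41 against 13.06 and 13.08). Over erythroid markers it was lowest (9.54 against 10.37 and 10.82), and osteoblast markers averaged 10.65 on each M array. The part of these differences in the Ccn3 reading was not tested.

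Ccn4, named as a gene induced by Wnt-1 and made in bone-forming cells, read 7.44, 7.50 and 7.56 on the WT arrays, 7.49, 7.50 and 7.23 on the E arrays, and 10.03, 10.11 and 10.35 on the M arrays (log2). WT and E overlapped, and their difference of -0.09 had a 95% interval from -0.38 to 0.20 (adjusted p = 0.801). The sign of that difference turned, to 0.04, when arrays were centred on their medians. From WT to M, Ccn4 rose 6.33-fold, by 2.66 (SE 0.13, adjusted p = 2.78e-08).

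Ccn5, the member without the cystine knot, gave the lowest and most scattered readings in WT and E. Its signals were 3.77, 5.26 and 3.08 on the WT arrays and 4.64, 4.39 and 3.16 on the E arrays, all under the median of their array. The M arrays read 9.55, 9.34 and 9.67 and agreed closely with each other. Over all 18194 genes, the difference between E and WT was 0.03 (95% interval -1.17 to 1.22, adjusted p = 0.992), so a change of 1 log2 unit either way could not be told from none. The rise from WT to M was 5.49 (SE 0.55, adjusted p = 5.62e-06), or 44.8-fold. Because the WT signals are so low, that fold depends on the scale, and the rise was 3.26 (log2) with a pseudocount of 64 added to the linear signal.

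**Figure D1:**
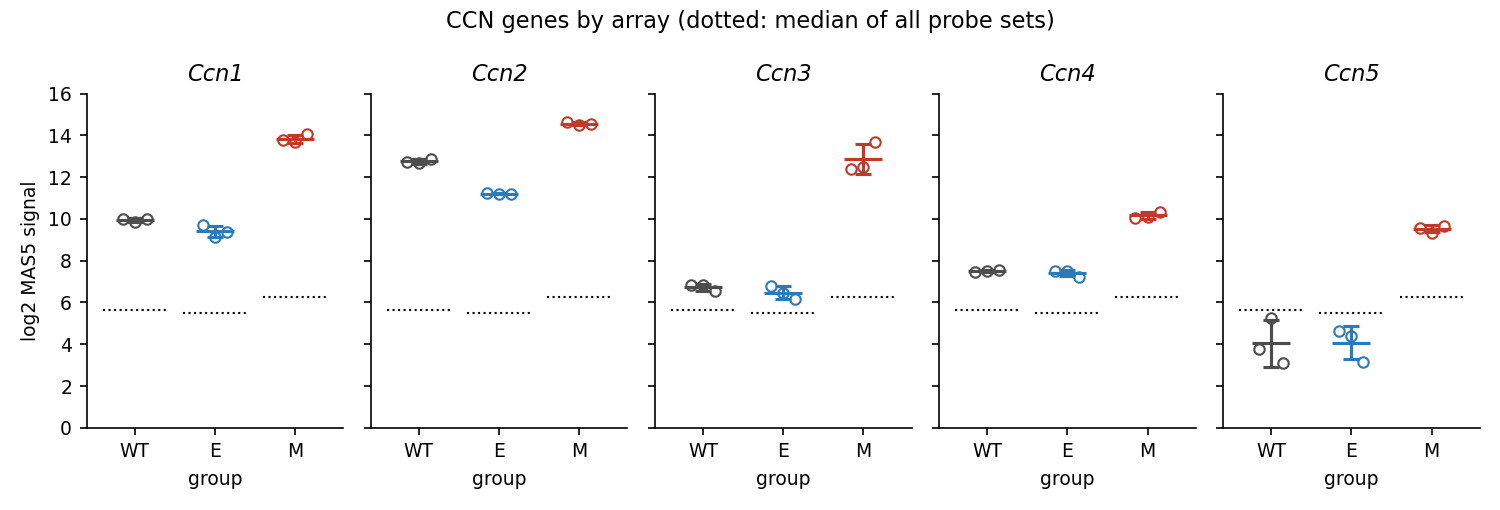
Log2 MAS5 signal (vertical axis) of the 5 CCN genes on each array (circles), with the mean and SD of each group of 3 arrays (bars) and the mean of the arrays' medians over all probe sets (dotted lines). M arrays lie above all WT and E arrays for each gene, E arrays lie under the WT arrays for Ccn1 and Ccn2, and Ccn5 lies under the dotted line in WT and E.

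Ccn1, Ccn2, Ccn3 and Ccn4 were bright enough in mean signal to enter the test (9097 genes at or above a mean of 6.83), and Ccn5 was not. Ccn3 reached the limit through its M arrays, since its WT and E means of 6.74 and 6.47 lay under it. Among the genes tested, 1.65% were called lower in E than in WT and 0.462% higher. Ccn2 was the member called. Over all 18194 genes, where Ccn5 was tested, 0.852% were called in either direction. M differed from WT far more widely, with 25.3% of genes called higher and 43.5% lower (22.2% higher over all 18194 genes). Scaling moved this balance: of the genes called in M with WT, 36.8% were higher as deposited, 16% after median centring and 11.8% with arrays brought to equal spike-in signal, where the median of all genes tested was -0.19, -0.82 and -1.20. For M with E the shares were 37.3%, 14.9% and 12.6%. In E with WT, 21.9% of the calls were higher as deposited and 56.0% after median centring. Against E, 26.1% of genes were called higher in M (24.1% over all genes). All 5 genes had M arrays above every WT array, a separation that 28.3% of all 18194 genes showed, and above every E array, which 30.5% showed. E arrays lay under every WT array for Ccn1 and Ccn2, as they did for 11.3% of all genes. With equal spike-in signal the rises from WT to M were smaller, at 2.86 for Ccn1, 0.81 for Ccn2, 5.11 for Ccn3, 1.65 for Ccn4 and 4.47 for Ccn5 (log2), and each was still called. The comparisons with WT share the WT arrays, and those with E share the E arrays.

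The path through the phases was tested as the difference between the second step (E to M) and the first (WT to E). It was 4.95 for Ccn1 (SE 0.23, adjusted p = 6.75e-08), 4.90 for Ccn2 (SE 0.12, adjusted p = 1.62e-09), 6.65 for Ccn3 (SE 0.51, adjusted p = 2.11e-06) and 2.85 for Ccn4 (SE 0.23, adjusted p = 2.87e-06). Over all genes, Ccn3, which had passed the limit only through M, had the same 6.65 (adjusted p = 1.05e-06). Ccn5, over all genes, had 5.43 (SE 0.95, adjusted p = 0.000900). Of the genes tested, 20.6% had a second step called above the first (16.4% over all 18194 genes). Of the genes called there, 40.2% were higher as deposited, 13.7% after median centring and 13.0% with equal spike-in signal. For Ccn2 the steps had opposite signs, and both were called.

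How far the members moved was compared in pairs, and no pair passed 0.05 after adjustment, which 3 arrays a group do not allow. The change of one gene was set against that of another within each array, which uses no level of one probe set against another. In M with WT, the within-array differences of 9 of 10 gene pairs did not overlap between the groups, as for 44.7% of all pairs of the 18194 genes. Each had an exact permutation p = 0.1 (two-sided, the lowest value possible with 3 arrays a group; 0.154 adjusted over 20 tests). The rise of Ccn1 minus that of Ccn2 was 2.06, and the rise of Ccn2 minus that of Ccn4 was -0.84 (log2; -0.50 with a pseudocount of 64 and -0.56 after quantile normalization). The rise of Ccn1 minus that of Ccn3 was -2.24. Ccn3 and Ccn5 overlapped, with a difference of 0.63 (exact permutation p = 0.5), but not with a pseudocount of 64 (2.19, exact permutation p = 0.1). The rise of Ccn1 minus that of Ccn5 was -1.61, but with a pseudocount of 64 the order turned and it was 0.53. In E with WT, 4 of 10 pairs did not overlap, as for 16.5% of all pairs of genes. The change of Ccn1 minus that of Ccn2 was 1.00, that of Ccn2 minus Ccn3 -1.27 and that of Ccn2 minus Ccn4 -1.45, with the lower value for Ccn2 each time. The remaining pair was Ccn1 with Ccn4, at -0.45 (-0.73 with the mean of probe sets), and the pairs with the scattered Ccn5 overlapped. With the mean of probe sets, the change of Ccn1 minus that of Ccn2 was 0.80. That of Ccn1 minus Ccn3, which overlapped at -0.27 (exact permutation p = 0.3), was then -0.69 (exact permutation p = 0.1).

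Probe sets of a gene moved the same way in M, and in E not all did. Over all 34958 one-symbol probe sets, each of the 10 rose from WT to M, where 18.5% of probe sets were called higher. The 4 for Ccn1 rose by 3.67 to 3.92, the pair for Ccn3 by 6.12 and 6.45, and the pair for Ccn4 by 2.66 and 2.61 (log2). In E, the 4 Ccn1 probe sets were each under WT on every array, by differences of -0.54, -0.62, -0.78 and -1.01. The probe sets 1438133_a_at (adjusted p = 0.0185) and 1457823_at (adjusted p = 0.0261) were called lower and 1416039_x_at (0.123) and 1442340_x_at (0.131) were not, where 0.446% of probe sets were called lower. The x in a name is the maker's mark for probes that may also match other transcripts. With the mean of its 4 probe sets Ccn1 was called, at -0.74 (adjusted p = 0.00451). It was also called with the chosen probe set without M replicate 3 (-0.54, adjusted p = 0.00758), without E replicate 1 (-0.68, adjusted p = 0.0308) and when E and WT arrays alone were fitted (adjusted p = 0.0165). Over all genes tested, these settings called 836, 111 and 756 genes in E with WT, against 192 in the main fit. Both calls of single Ccn1 probe sets were lost after median centring, quantile normalization, with equal spike-in signal and with no intensity trend (adjusted p up to 0.239 and 0.166). They were also lost without some arrays, with adjusted p up to 0.118 for 1438133_a_at (on leaving out replicate 1 or 3 of WT or of E) and up to 0.121 for 1457823_at (on leaving out any WT array, replicate 1 or 3 of E, or replicate 1 or 2 of M). For Ccn3 and Ccn4 the probe sets disagreed in sign in E. Ccn3 read -0.27 and 0.17, and Ccn4 -0.09 and 0.09, with none called.

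**Figure D2:**
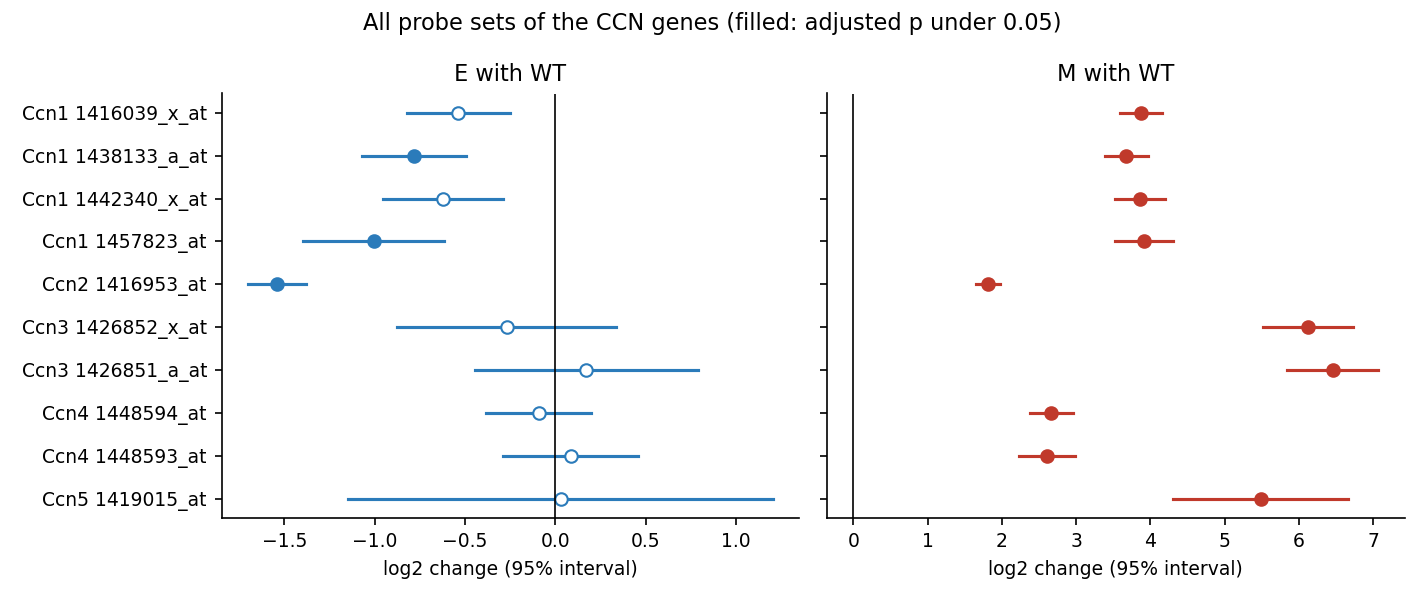
Log2 change with its 95% interval (horizontal axis) for each of the 10 probe sets of the CCN genes, in E with WT (left) and M with WT (right), from the fit over all one-symbol probe sets. Filled points have an adjusted p under 0.05. In E the 4 Ccn1 probe sets and Ccn2 lie below 0, and in M all intervals lie above 0.

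The genes around the family were described by lists, with the count of members called and the median change beside that of all genes tested (0.01 in E with WT, -0.19 in M with WT). A gene whose WT and E means lie under the brightness limit was tested only because its M arrays are high. Counts of tested genes that rose in M are therefore conditioned on that. The counts over all genes of a list on the array, fitted without the limit (median of all genes 0.11), are given beside them where these differ. Of 9 receptor genes tested, 2 fell and 7 did not pass in E (median -0.20), and 9 rose in M (median 1.54; without the limit, 10 of 12 rose, median 1.45). The integrin subunit gene Itgav, part of receptors for Ccn1 and Ccn2, averaged 9.18 ± 0.04 on WT arrays, 8.50 ± 0.04 on E arrays and 12.13 ± 0.33 on M arrays (SD, n = 3). Its fall in E (-0.67, adjusted p = 0.0297) was no longer called when any single array of WT or of E was left out, with adjusted p from 0.103 to 0.117. With the mean of its probe sets the difference in E was -0.54 (adjusted p = 0.604). The rise of Itgav from WT to M was then 1.14, against 2.95 with the chosen probe set, and was still called. Syndecan 4 (Sdc4), a heparan sulfate proteoglycan, fell by 0.84 in E (adjusted p = 0.00817, and 0.0541 and 0.0528 without WT replicate 3 or E replicate 3). It rose 6.70-fold from WT to M (adjusted p = 3.13e-08). Lrp1, an endocytic receptor of Ccn2, went from 6.44 ± 0.20 in WT to 10.23 ± 0.49 in M (SD, n = 3, adjusted p = 1.29e-07), and it is the 1 receptor gene that passed the limit only through M. Notch1, the partner of Ccn3, rose 2.91-fold from WT to M (adjusted p = 3.77e-06, and 0.0562 with equal spike-in signal). In E, Lrp1 (-0.39, adjusted p = 0.487) and Notch1 (-0.40, adjusted p = 0.222) did not pass. With equal spike-in signal 4 receptor genes rose and 1 fell in M.

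Of 12 tested targets of YAP, TAZ and TEAD other than the members, 2 fell and 10 did not pass in E (median -0.08; 4 fell without M replicate 3), while 10 rose and 1 fell in M (median 2.00, and 6 rose and 3 fell with equal spike-in signal). Without the limit 15 of 20 rose and 1 fell (median 1.83), and 1 of the tested genes had passed only through M. Over all genes tested, 836 were called in E with WT without M replicate 3, against 192 with all arrays. When E and WT arrays alone were fitted, 756 were called. The secreted protein gene Ccdc80 fell by 0.93 in E (adjusted p = 0.00303) and Nt5e, which encodes the ecto-enzyme CD73, by 1.51 (adjusted p = 0.00283). With the mean of their probe sets neither passed (adjusted p = 0.407 and 0.639). Tissue factor (F3, -0.82, adjusted p = 0.0773) and Amotl2, a scaffold that restrains YAP (-0.02, adjusted p = 0.979), did not pass in E, though F3 was called without M replicate 3 (adjusted p = 0.00111). From WT to M the named genes rose by 3.09 (Ccdc80), 3.42 (Nt5e), 3.12 (F3) and 3.11 (Amotl2), all log2. Of the 12 core Hippo pathway genes tested, 0 passed in E with limma's test (3 at an unadjusted p under 0.05, median -0.04), and 5 rose and 2 fell in M (median 0.24, and 7 fell with equal spike-in signal). Without the limit 7 of 15 rose and 2 fell (median 0.26). Yap1 and Wwtr1, the genes of both coactivators, were among those that rose, and Yap1 had passed the limit only through M. Wwtr1, which encodes TAZ, averaged 7.94 ± 0.19 on WT arrays, 7.17 ± 0.05 on E arrays and 11.81 ± 0.51 on M arrays (SD, n = 3). Yap1 averaged 5.67 ± 0.14, 5.86 ± 0.20 and 9.51 ± 0.37 in the same order. The difference of Wwtr1 between E and WT had an adjusted p of 0.106, and of 0.00114 without M replicate 3. It was also called lower with equal spike-in signal (adjusted p = 0.0492), with the mean of its probe sets (-1.27, adjusted p = 0.0469) and when E and WT arrays alone were fitted (adjusted p = 0.00873). Tead1 and Amotl1 rose by 2.53 and 3.00 from WT to M.

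Genes that respond to TGF-beta and to acute stimulation rose in M, and some fell in E. Of 8 TGF-beta targets tested, 1 fell in E (median -0.43; 4 fell without M replicate 3) and 8 rose in M (median 3.17; without the limit, 9 of 9, median 3.26). Of the 8, 1 had passed the limit only through M. Pmepa1, a feedback inhibitor of the pathway, fell by 0.85 in E (adjusted p = 0.00161, and 0.0631 with the mean of its probe sets) and rose 7.13-fold from WT to M (adjusted p = 4.34e-09). Bhlhe40, a transcriptional repressor, averaged 7.67 ± 0.21 on WT arrays, 6.99 ± 0.24 on E arrays and 11.61 ± 0.18 on M arrays (SD, n = 3), and its difference in E had an adjusted p of 0.0559. Skil, a SMAD corepressor, and Tgfbi, a matrix protein, rose from WT to M by 2.96 and 3.42. Of 18 immediate early genes, 6 fell and 12 did not pass in E (median -0.65, with 12 falling without M replicate 3). Leaving out that array raised the calls in E with WT over all genes tested from 192 to 836. In M, 17 rose (median 3.04), and 5 of the 18 had passed the limit only through M. Jun fell by 1.08 (adjusted p = 1.89e-05), Fos by 0.94 (adjusted p = 3.81e-05) and Egr1 by 0.65 in E (adjusted p = 0.000612, and 0.0981 with equal spike-in signal). Ier3 had -0.53 (adjusted p = 0.0759). Egr1 rose 16.5-fold from WT to M (adjusted p = 1.62e-11) and Jun 2.18-fold (adjusted p = 1.79e-07, and 0.606 with equal spike-in signal). Wnt targets were mostly dim. Of 2 tested, 1 rose in M, the Wnt inhibitor gene Apcdd1 (by 3.52, adjusted p = 3.32e-06), which had passed the limit only through M. Without the limit 5 of 9 rose and 1 fell. The other tested gene, Znrf3, a ubiquitin ligase that restrains Wnt signalling, had -0.16 in M (adjusted p = 0.348). It was called lower in M after quantile normalization (-0.57, adjusted p = 0.00364), after median centring (-0.79, adjusted p = 0.000262) and with equal spike-in signal (-1.17, adjusted p = 4.45e-06).

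**Figure D3:**
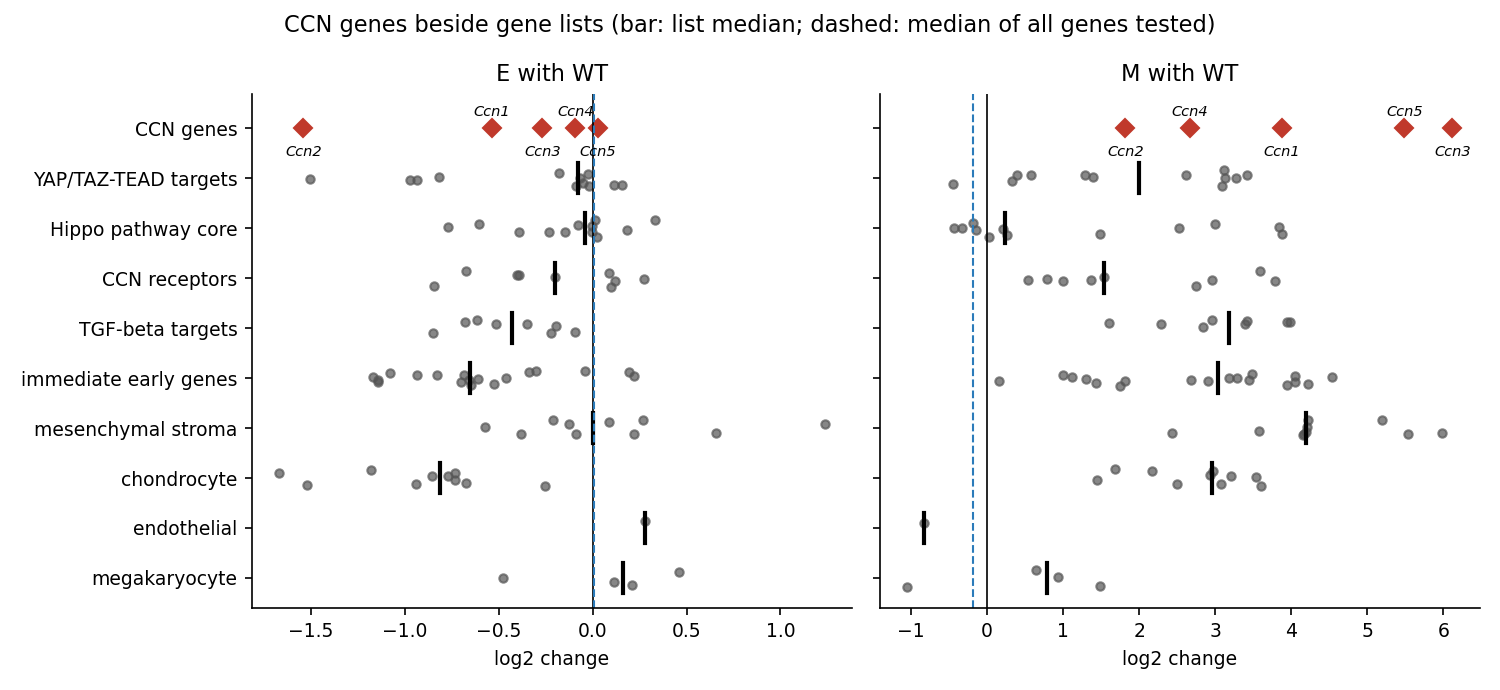
Log2 change (horizontal axis) of the 5 CCN genes (diamonds) and of the tested genes of the lists shown (points, with black bars at the list median) in E with WT (left) and M with WT (right). The lists of Wnt targets and of osteoblast, pericyte, erythroid, granulocyte and pan-hematopoietic markers are not plotted. Dashed lines mark the median of all genes tested, 0.01 and -0.19. In E, Ccn2 at -1.54 lies under the lowest immediate early gene (-1.17) and above the lowest chondrocyte gene (-1.67), and in M the CCN genes span 1.82 to 6.12.

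Cell type markers moved beside the members. Of 10 chondrocyte genes, 9 fell in E (median -0.81) and 10 rose in M (median 2.95). Their summed linear signal ran from 26922 to 31228 on the WT arrays, from 15462 to 16227 on the E arrays and from 121410 to 140285 on the M arrays. Col2a1, the main cartilage collagen, was at 12.87 ± 0.14, 12.10 ± 0.05 and 14.32 ± 0.04 (SD, n = 3). Mesenchymal stroma markers, by contrast, had 1 of 10 called in E, Col1a1, which was higher (6 at an unadjusted p under 0.05, median 0.00), while 10 of 10 rose in M (median 4.20), of which 1 had passed the limit only through M. Their summed signal was 6060 to 6605 in WT, 7074 to 7651 in E and 92239 to 116805 in M. Of 8 granulocyte markers, 5 rose and 1 fell in E (median 1.87) and 8 rose in M (median 5.16), with sums of 6370 to 6933 in WT, 9618 to 10815 in E and 78779 to 96076 in M. Of 6 pan-hematopoietic markers, 1 fell in E (median -0.52) and 6 rose in M (median 1.33). Of 4 erythroid markers tested, 0 were called in E with limma's test (2 at an unadjusted p under 0.05, median -0.62) and 2 fell in M (median -0.29). Without the limit 2 of 5 fell in M (median -0.02). Of 4 megakaryocyte markers tested, 0 were called in E with limma's test (1 at an unadjusted p under 0.05), and 3 rose and 1 fell in M (median 0.79). Without the limit 4 of 5 rose and 1 fell in M (median 0.93). Endothelial markers (7 genes) averaged 5.10 to 5.80 on the WT arrays, 5.02 to 5.54 on the E arrays and 6.68 to 7.33 on the M arrays (log2). The brightest of them, Egfl7, was the 1 bright enough to be tested, and it fell in M (-0.83, adjusted p = 0.000475) and had 0.28 in E (adjusted p = 0.450). Without the limit 5 of the 7 rose in M and 1 fell. Pericyte markers averaged 4.61 to 5.01, 4.10 to 4.46 and 6.64 to 7.77, and 5 of 7 rose in M without the limit. Of 4 osteoblast markers, 1 fell in E (Alpl, median of the list 0.17) and 4 rose in M (median 3.00). No marker of these lists was at 0 on any array. The part of any of these cell types in the CCN readings was not tested.

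The members were nearest to different genes. Likeness was the root mean square difference over the 9 arrays between the log2 values of 2 genes, each centred on its own mean, among the genes tested. Ccn2 was nearest to Comp, a cartilage matrix protein (0.189), Dusp1, a phosphatase of MAP kinases (0.238), and Plk2, a polo-like kinase (0.254), and 7 genes in all lay within 0.3. Comp changed by -1.18 in E and 2.16 in M, against -1.54 and 1.82 for Ccn2. Ccn1 was nearest to Bhlhe40 (0.132), the lipid phosphatase gene Plpp3 (0.151) and Itm2a (0.169), with 61 genes within 0.3. Ccn4 had 155 genes within 0.3, led by the actin-severing protein gene Gsn (0.105), Abtb2 (0.114) and Emilin1, an elastic fibre protein (0.122). Ccn3 had no gene within 0.3. Its nearest were the matrix genes Ogn (0.323), Col8a1 (0.350) and Abi3bp (0.353). Each of these also changed little in E (-0.06 to -0.19) and rose by 5.85 to 6.07 in M. Like Ccn3, each had passed the brightness limit only through M, so their rise in M is conditioned on that limit. Their WT and E means were 6.81 and 6.63 (Ogn), 6.67 and 6.48 (Col8a1) and 5.36 and 5.29 (Abi3bp). Ccn5, with its scattered low readings, was nearest to the basement membrane gene Nid1 (0.642), Antxr1 (0.645) and C1ra (0.658). C1ra, at 5.24 in WT and 5.26 in E, had also passed the limit only through M. Among the members themselves, Ccn2 and Ccn4 were nearest (0.608) and Ccn2 and Ccn3 farthest (1.85). These are descriptions over arrays that fall into groups, with no test. Nearest genes were chosen on these same arrays, so the changes they share with a member follow from the choice.

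**Figure D4:**
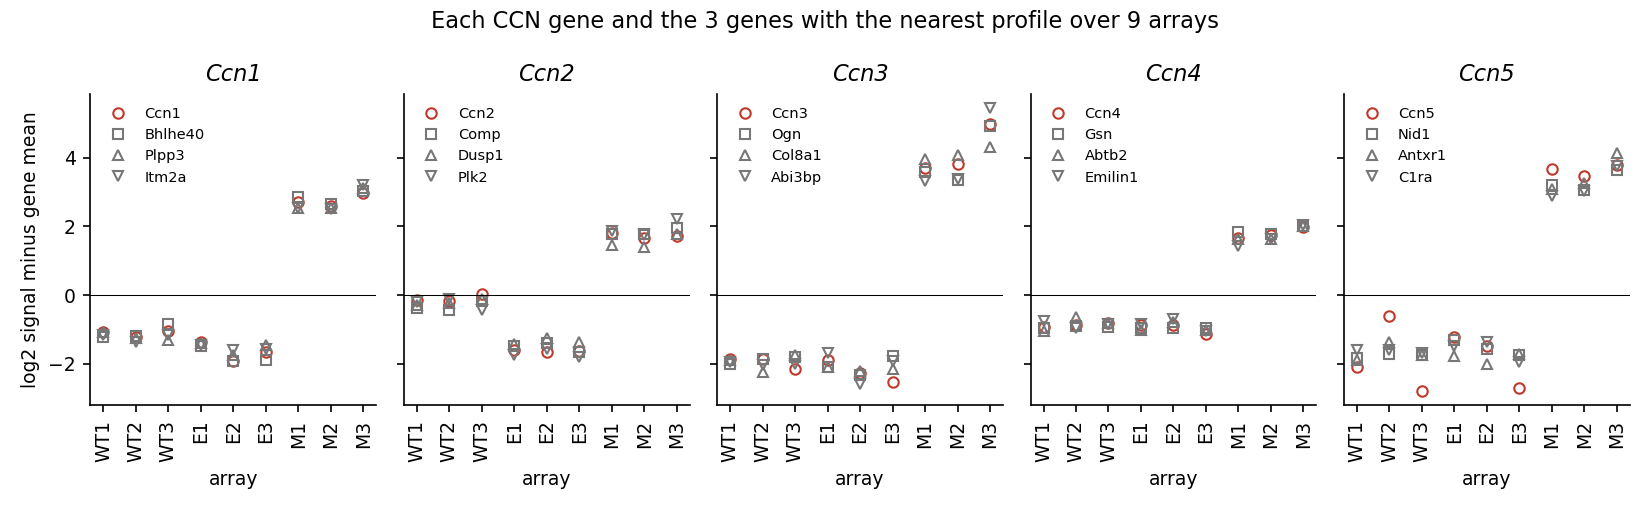
Log2 signal minus the gene's own mean over 9 arrays (vertical axis) on each array, for each CCN gene (red circles) and the 3 tested genes with the smallest root mean square difference from it (grey). The Ccn2 panel shows the dip on the E arrays that its neighbours, chosen for likeness on these arrays, share, and the Ccn3 panel the higher reading on M replicate 3.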

How the data were processed

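The authors deposited log2 signals, 1 for each probe set on each array, made with MAS5 per the submitters' processing notes (version not given in the sources used here). Values were used as deposited. Probe sets with a single symbol in the platform annotation (34958 of 45101) were kept, and the one with the highest mean over 9 arrays stood for a gene. Of 18194 genes, the brighter ones (mean of at least 6.83, the median over genes) entered a fit in limma 3.58.1 under R 4.3.3 (all 9 arrays, intensity trend, Benjamini-Hochberg over 9097 genes, called under 0.05), and Ccn5 in the same fit over 18194 genes. SE values and 95% intervals are those of the model. The fit was tested on simulated data in which a small share of genes changed, up or down at random. Those data held no difference in scale between arrays, so they do not bear on the effect of scaling in M. Members, lists and tests were chosen with earlier results of these data known. Genes of a list were named by the 4 smallest p of the F test over the 3 groups. Replicate numbers were not used as pairs in the main fit. Deviations of the 9 same-numbered pairs correlated between -0.116 and 0.079. Whether arrays of the same number shared a batch was not tested. The number of arrays limits the precision.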

Additional observations from a re-analysis of the deposited data

How the results depend on the processing

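Pseudocounts, filters, normalizations, variance models, the mean of probe sets, fits of 2 groups, the replicate block and leaving out each array were tried. The rises of Ccn1 to Ccn5 in M and the fall of Ccn2 in E (-1.58 to -1.40) kept their direction and call in each setting run. In M with WT, spike-in scaling lowered the rise of Ccn2 to 0.81, of Ccn1 to 2.86, of Ccn4 to 1.65 and of Ccn3 to 5.11. The fall of Ccn1 in E was called with the mean of probe sets (-0.74) and in the fit of E and WT alone (-0.54), and lay between -0.68 and -0.40 with single arrays left out. Differences of E from WT that were not called changed sign for Ccn5 (-0.0199 with a pseudocount of 64, -0.447 to 0.639 with single arrays left out), for Ccn4 (0.0438 with median centring) and for its probe set 1448593_at (-0.0268 to 0.265 with single arrays left out). The cause was not tested.

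With the replicate block 153 genes were called in E with WT, Ccn1 had an adjusted p of 0.0506 there, no member's call changed, and F3 in E became called (0.0401). Genes called in E with WT (192) numbered 85 with the stricter filter, 118 after quantile normalization, 102 with the mean of probe sets, 756 in the fit of E and WT alone, and 98 to 836 with single arrays left out (836 without M replicate 3). The stricter filter called 3466 genes in M with WT (6259), 3485 in M with E (6368), 2633 for the second step (4661) and 3531 in the F test (6386), with fewer genes tested. Median centring called 7526 and spike-in scaling 7055 for the second step; the cause was not tested. Among named list genes, uncalled differences changed sign. For Amotl2 in E the values were 0.0533 with quantile normalization, 0.117 with median centring and -0.0635 to 0.0303 with single arrays left out. Skil in E had 0.042 with median centring, and Yap1 in E -1.27 with the mean of probe sets. Znrf3 had 0.0467 in E with median centring, 0.403 in E and 0.330 in M with the mean of probe sets, and, with single arrays left out, -0.171 to 0.0199 in E with WT and -0.136 to 0.0166 in M with E.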
